A study of Mus musculus with 4 samples.

Results

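Receptors for pituitary hormones and the Leydig cell hormone Insl3 were examined in testes of adult male mice of 2 genotypes. The list held 5 genes, Lhcgr, Fshr, Prlr, Ghr and Insl3. Its members were all probe sets of the Affymetrix Mouse Expression 430A array that the platform annotation assigns to a listed gene and to no other. Of 22626 probe sets 4 met this rule, 1 for Fshr and 3 for Ghr, so that 2 of the 5 genes are represented. Lhcgr and Prlr were not analysed here. A further 2 probe sets are annotated to Jak3 and Insl3 together; these genes cannot be told apart on them, so they are described as joint probe sets and not counted as members.

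W/Wv males, in which the receptor gene Kit is mutated, came from WB x B6 parents and were purchased. XX/Sry males lack a Y chromosome and owe their testes to an Sry transgene; both genotypes are known to lose germ cells. Whole testis and isolated seminiferous tubules were taken from each, which made 4 groups with 1 array apiece. To isolate tubules, decapsulated testes were kept in collagenase (5 mg/ml) for 40 min at 37 °C, and a 70 µm strainer held back the tubules while interstitial cells were washed through. The sources used here do not give the strain of the XX/Sry males, the promoter of their transgene, the number of animals behind an array, or whether both preparations came from the same males.

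Deposited values are MAS5 signals, a linear measure of brightness, and each fold below is a ratio of single arrays without a replicate check. The highest signal of 27 bacterial control probe sets served as the background bound of an array and lay between 46.1 and 76.3. Median signals lay between 157 and 183. Hybridisation spike controls were brightest in W/Wv tubules, at a log2 deviation of 0.46, and lay between -0.18 and -0.09 elsewhere. Germ cell markers summed to 6095 in W/Wv whole testis and to between 1006 and 1237 on the other arrays; Ddx4, a germ cell helicase, had 304.8 there, and Stra8, which starts meiosis, 351.6. Of 12 such markers, by the 2-fold rule stated below, both passed as lower in XX/Sry and Stra8 as lower in tubules. The background bound does not establish these calls in both pairs. Among all genes 3.22% passed as lower in XX/Sry and 5.74% as lower in tubules. Precision is limited by the number of arrays.

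The pituitary acts on the testis mainly through luteinising hormone and follicle-stimulating hormone. Luteinising hormone binds Lhcgr on Leydig cells, and follicle-stimulating hormone binds Fshr, which in the male is made by Sertoli cells; both receptors raise cyclic AMP through the G protein Gs. Growth hormone and prolactin bind Ghr and Prlr, cytokine receptors that signal through Jak2 and the Stat5 proteins. Insl3, a relaxin-like peptide of Leydig cells, acts on the receptor Rxfp2 and takes part in the descent of the testis.

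The sequence before the start of Fshr is shown because Fshr was the member with signals farthest above the background bound. An E box, the letters CACGTG, is a known element of the Fshr promoter and binds factors such as Usf1. Fshr lies on chromosome 17, and the 250 bases before its RefSeq start (GRCm38.p6, chr17:89200676-89200925, minus strand) hold 1 such match, in capitals, at 61 to 56 bases before the start. It is printed 5′ to 3′:
Fshr: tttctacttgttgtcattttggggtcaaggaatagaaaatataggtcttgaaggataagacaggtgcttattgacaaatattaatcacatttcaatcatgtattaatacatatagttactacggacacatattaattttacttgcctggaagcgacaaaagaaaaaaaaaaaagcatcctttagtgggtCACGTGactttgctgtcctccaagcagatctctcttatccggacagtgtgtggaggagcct
Of 32851 RefSeq promoters of 250 bases, 6.02% hold CACGTG, which reads the same on both strands. A nuclear receptor half-site (AAGGTCA on either strand, in 4.08% of promoters) and a GATA site (AGATAA on either strand, in 9.99%) were searched too. The Fshr window held neither, and none of the 3 motifs was found in the windows of both Ghr starts or of the Insl3 start. A match describes the letters only.

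Fshr, probe set 1450810_at, lay above the background bound on all arrays and was brightest in W/Wv tubules. In whole testis its signal was 527.6 for W/Wv and 606.1 for XX/Sry, and in tubules it was 938.1 and 655.4. W/Wv tubules stood apart, and the other arrays lay closer together. Between genotypes, whole testis of XX/Sry was 1.15-fold higher and its tubules were 1.43-fold lower. Between preparations, tubules were 1.78-fold higher for W/Wv and 1.08-fold higher for XX/Sry. W/Wv tubules also had the brightest spike controls, whose part in the Fshr signal was not tested.

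**Figure D1:**
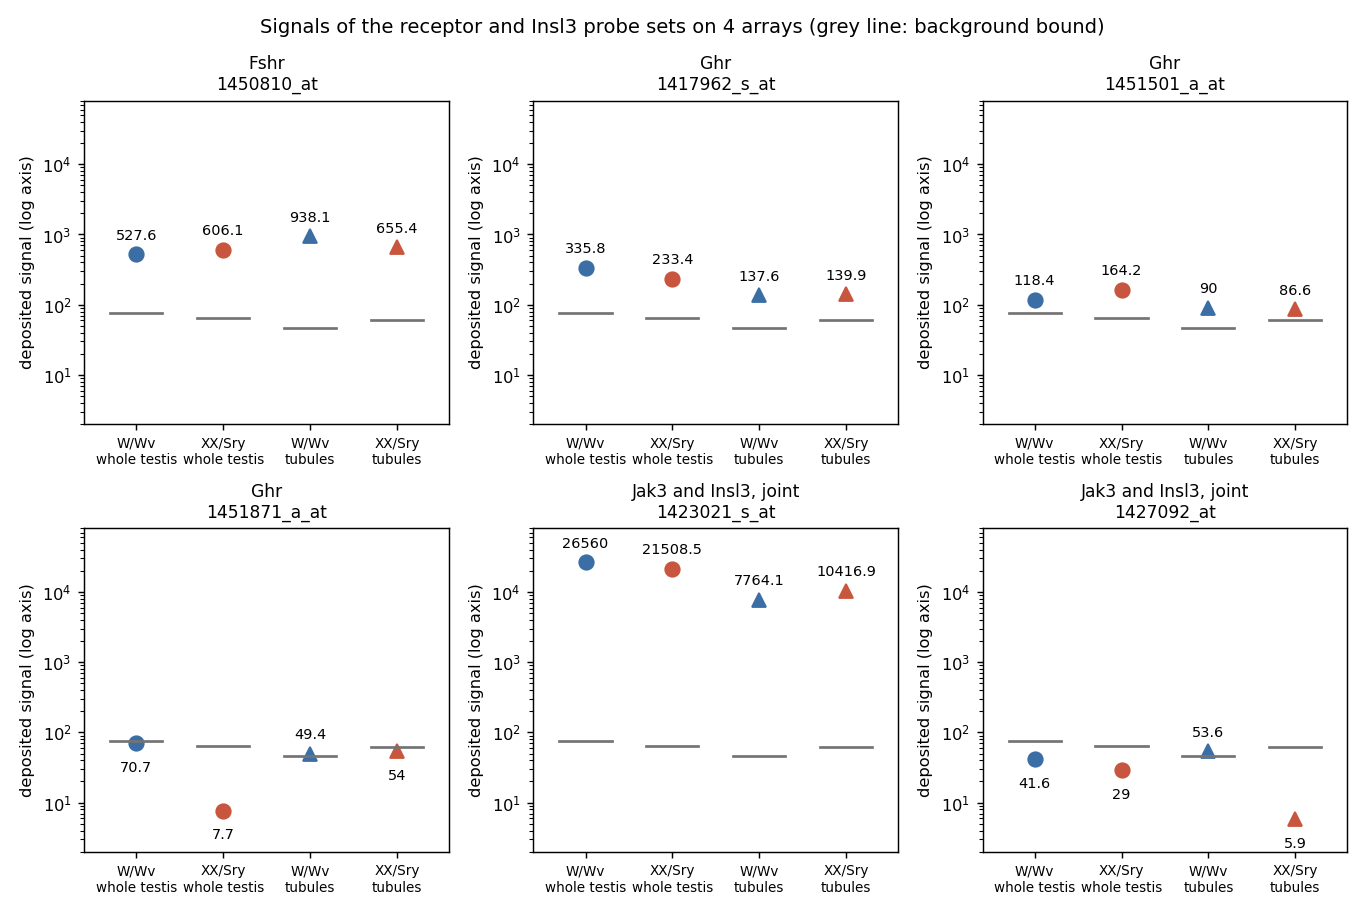
Deposited signal (log axis) of each Fshr and Ghr probe set and of both joint Jak3 and Insl3 probe sets, 1 point per array, blue for W/Wv and red for XX/Sry, circles for whole testis and triangles for tubules; grey lines are background bounds. Fshr lies between 527.6 and 938.1, while 1451871_a_at and 1427092_at lie near or below the bound.

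Following the study's own criterion for genotype, a probe set passed if it differed 2-fold or more in one direction across both array pairs. The same rule was turned to preparation here. For genotype 0 of the 4 members passed, where 2.2% of all probe sets passed as higher and 3.8% as lower in XX/Sry. For preparation 0 of 4 passed, where 1.81% passed as higher and 5.86% as lower in tubules. Scaling moved the balance of these background calls: 36.7% of genotype calls were higher with deposited signals, 48.6% after quantile normalisation, 58.4% with 50 added to signals and 63.6% among bright pairs. For preparation 23.6% were higher with deposited signals, 37.6% after median centring and 41.2% after quantile normalisation. With 50 added to signals the preparation share was 20.6%, and among bright pairs 24.4%, both close to that with deposited signals. A limma model with terms for genotype and preparation, 1 residual degree of freedom and Benjamini-Hochberg adjustment over all probe sets, called 0.15% of them for genotype and 1.22% for preparation at an adjusted p under 0.05. Limma called 0 of the 4 members in either comparison; at an unadjusted p under 0.05 there were 0 for genotype and 1, the brightest Ghr probe set, for preparation. Its error joins the disagreement between array pairs with a prior variance drawn from all probe sets. The prior carried 9.98 degrees of freedom against 1 residual, so it sets most of the error. Such an error may hold no spread between animals.

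For Fshr limma estimated a genotype difference, XX/Sry minus W/Wv, of -0.16 on the log2 scale (SE 0.29, adjusted p = 0.937), with a 95% interval from -0.79 to 0.47. The preparation difference, tubules minus whole testis, was 0.47 (SE 0.29, limma adjusted p = 0.518), with a 95% interval from -0.16 to 1.10. Neither interval shows that levels were equal. After median centring the W/Wv preparation ratio was 1.05 on the log2 scale, past 2-fold, and the XX/Sry one was 0.23.

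**Figure D2:**
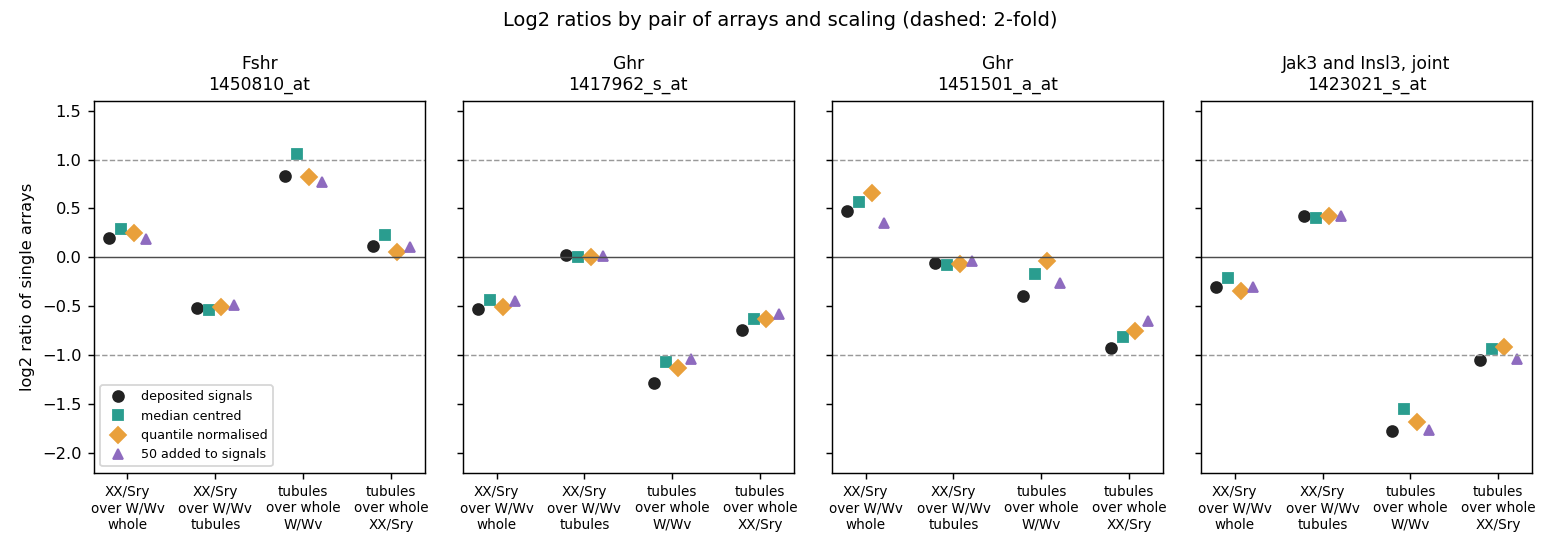
Log2 ratio (vertical axis) of Fshr, of the brighter Ghr probe sets and of the brighter joint Jak3 and Insl3 probe set in each pair of arrays, under 4 treatments of the signals; dashed lines mark 2-fold. Fshr crosses the line in the W/Wv preparation pair after median centring (1.05), and the joint probe set lies below -1 in both preparation pairs with deposited signals.

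Markers of Sertoli cells, the cells that carry Fshr and nurse germ cells, were set beside it. Over all 12393 genes 1.98% passed as higher and 3.22% as lower for genotype, and 1.32% and 5.74% for preparation. Of 16 Sertoli markers measured, 0 passed for genotype and 0 for preparation. Between preparations their median log2 ratio was 0.58 for W/Wv and 0.25 for XX/Sry, with 15 and 14 of 16 above 0; Fshr, at 0.83 and 0.11, lay above 12 and 5 of them. Between genotypes their median was 0.07 for whole testis and -0.16 for tubules, where Fshr had 0.20 and -0.52. The marker median of -0.16 became 0 after quantile normalisation. The summed signal of the markers was highest in W/Wv tubules, as for Fshr: 104127 (W/Wv) and 106716 (XX/Sry) for whole testis, 143390 and 123087 for tubules. Such a sum weighs bright genes most, and some markers, the inhibin subunit Inhbb among them, were brightest in XX/Sry tubules instead. Clu, a secreted chaperone and the brightest marker, had 29276 and 35925 in whole testis, 50416 and 38329 in tubules, and Cst12, a cystatin, had 23617 and 17422, then 27660 and 23382. Amh, which adult Sertoli cells hardly make, lay below the bound in both whole testis samples (8.6 and 51.8); no marker was at 0. In bulk samples fewer cells of a type and less RNA per cell cannot be told apart, and the part of Sertoli cell content in the Fshr signals was not tested.

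**Figure D3:**
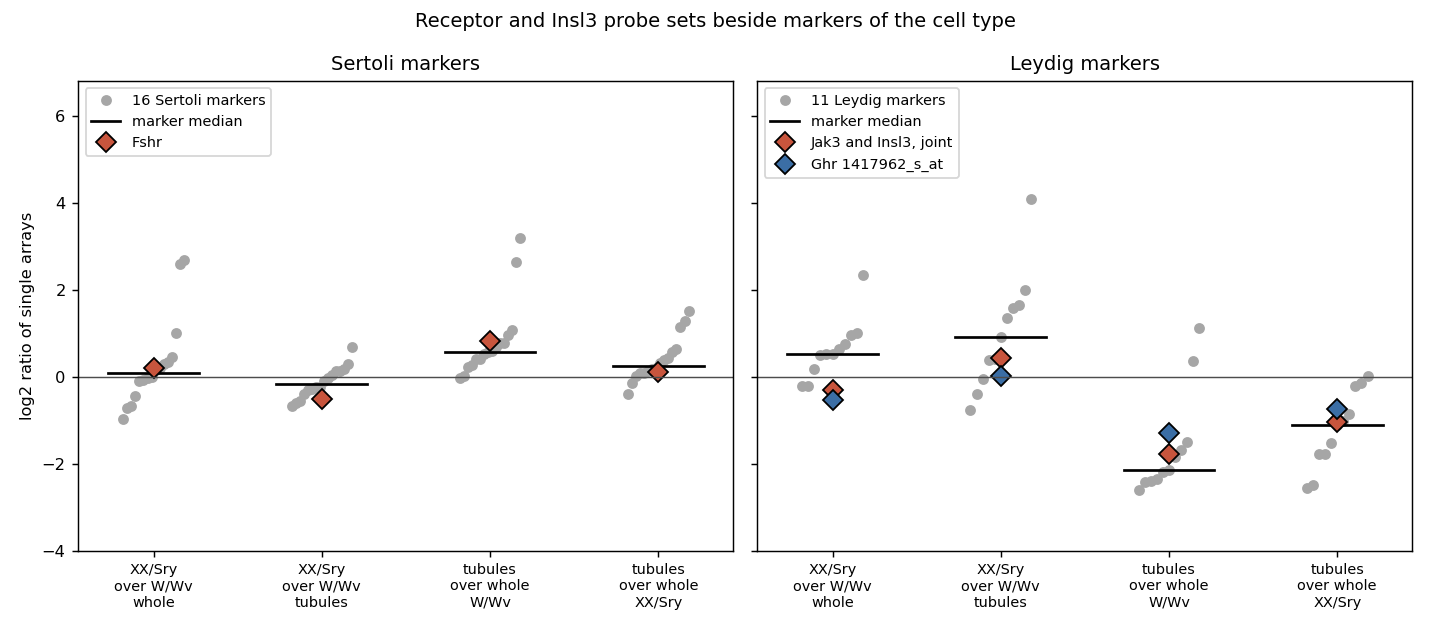
Log2 ratios in the 4 pairs of arrays of Fshr (red diamond) beside 16 Sertoli markers (grey, left), and of the joint Jak3 and Insl3 probe set 1423021_s_at (red) and Ghr 1417962_s_at (blue) beside 11 Leydig markers (grey, right); black bars are marker medians. Fshr lies inside the range of the Sertoli markers in every pair, and both probe sets on the right lie below every Leydig marker for the genotype ratio of whole testis.

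Of 12 Sertoli cell genes known to respond to follicle-stimulating hormone, 0 passed for genotype, where 1.98% of all 12393 genes passed as higher and 3.22% as lower. Their median log2 ratio was -0.34 for whole testis and -0.14 for tubules, beside -0.10 and -0.0026 over all genes. For preparation 1 was higher and 0 lower, where 1.32% of genes passed as higher and 5.74% as lower; medians were 0.39 for W/Wv and 0.32 for XX/Sry beside -0.15 and -0.02 over all genes. The gene that passed was Plat, tissue plasminogen activator. Plat had 527.7 (W/Wv) and 857.5 (XX/Sry) in whole testis, 2048.9 and 2817.5 in tubules, a 3.88-fold and a 3.29-fold rise (limma adjusted p = 0.00532). Inhbb, an inhibin subunit, was lowest in XX/Sry whole testis, at 1767.1 against 3456.3 to 5035.4 elsewhere, and did not pass. Inhba and Fst lay below the background bound on at least 2 arrays. Inhbb and some others of this list are also among the Sertoli markers above, so the lists are not separate evidence.

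Of 22 genes of the relay from Gs to protein kinase A, which both gonadotrophin receptors use, 0 were higher and 1 lower for genotype, and 0 were higher and 1 lower for preparation. Over all genes 1.98% passed as higher and 3.22% as lower for genotype, and 1.32% and 5.74% for preparation. The same shares stand beside the counts of every list below. Medians were -0.18 and -0.01 for genotype (whole testis, tubules) and -0.09 and 0.03 for preparation (W/Wv, XX/Sry); -0.09 became 0.13 after median centring and 0.07 after quantile normalisation, and 0.03 became -0.19 with all probe sets of a gene averaged. Gnas, the Gs alpha subunit, had 9269.7 and 11167.5 in whole testis, 10514.8 and 12305.5 in tubules, without a 2-fold difference. Creb1, a transcription factor the kinase activates, was 2.52-fold lower in XX/Sry whole testis, 2.18-fold lower in XX/Sry tubules (limma adjusted p = 0.452). Arrb2, an arrestin that uncouples such receptors, was 2.54-fold lower in W/Wv tubules, 3.24-fold lower in XX/Sry tubules (limma adjusted p = 0.175). Both passed by fold, and limma called neither.

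Ghr, on chromosome 15, was measured by 3 probe sets, which share a gene and are not replicates. The brightest, 1417962_s_at, had 335.8 (W/Wv) and 233.4 (XX/Sry) in whole testis, 137.6 and 139.9 in tubules. Both whole testis samples exceeded both tubule samples, which lay close together. Tubules were 2.44-fold lower for W/Wv and 1.67-fold lower for XX/Sry, so 1 of 2 pairs reached 2-fold. Limma estimated -1.01 for preparation (SE 0.42, adjusted p = 0.311), with a 95% interval from -1.94 to -0.09.

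The second Ghr probe set, 1451501_a_at, lay closer to background, with 118.4 and 164.2 in whole testis, 90.0 and 86.6 in tubules. Tubules were again lower, 1.32-fold for W/Wv and 1.90-fold for XX/Sry; the W/Wv log2 ratio of -0.40 became -0.03 after quantile normalisation. On genotype in whole testis the probe sets disagreed: 1417962_s_at was 1.44-fold lower and 1451501_a_at 1.39-fold higher in XX/Sry. In tubules they differed by 1.02-fold and 1.04-fold. Limma genotype estimates were -0.25 (SE 0.42, adjusted p = 0.929) and 0.21 (SE 0.55, adjusted p = 0.961), with 95% intervals from -1.17 to 0.67 and from -1.0 to 1.42. The third probe set, 1451871_a_at, had 70.7 and 7.7 in whole testis, 49.4 and 54.0 in tubules; it exceeded the bound in W/Wv tubules alone, and no fold is given.

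Ghr is made by several cell types, and signals of some of their markers were also lower in tubules. Leydig markers summed to 69437 (W/Wv) and 91290 (XX/Sry) in whole testis, 18117 and 41452.5 in tubules; 7 of 11 passed as lower in tubules, among them the adhesion gene Vcam1, while Sult1e1, the estrogen sulfotransferase, and Hsd17b3 passed as higher in XX/Sry. Macrophage markers summed to 13517 and 17617, then 5357 and 4106, and 11 of 13 passed as lower, led by the complement genes C1qa, C1qc and C1qb and by Cd68. For Cd163, counted among them, the background bound leaves folds of at least 1.996 (W/Wv) and 1.93 (XX/Sry). Its pass is thus not established in either pair. Adipocyte markers summed to 512.2 and 473.3, then 244.9 and 276.1; Adipoq, 1 of 6, passed as lower but exceeded the bound on 1 array, and Lep and Pparg on none. Preparation medians were 0.91 and 0.39 for 8 peritubular markers, of which Tpm2 passed as higher. They were 0.36 and 0.43 for 10 endothelial markers, of which Vwf passed as higher; Pecam1 did so too, but the bound leaves folds of at least 1.67 and 1.30, which do not establish its pass, and Emcn passed as higher in XX/Sry (2.56-fold and 2.29-fold). They were -0.30 and -1.55 for 4 epididymal markers, of which 0 passed. The W/Wv median turned to 0.33 after quantile normalisation, and the XX/Sry median became -0.62 with 50 added to signals. No marker of this list exceeded the bound in XX/Sry tubules, and the brightest, Lcn8 and Adam7, exceeded it on 2 arrays each. The part of any of these cells in the Ghr signals was not tested.

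Of 21 genes of the Jak and Stat relay that Ghr and Prlr share, 0 passed for genotype; for preparation 1 was higher and 0 lower. Medians were -0.01 and 0.05 for genotype, 0.07 and 0.21 for preparation; the first turned to 0.08 after median centring, 0.05 after quantile normalisation and 0.02 with all probe sets of a gene averaged. Jak2, the kinase bound to both receptors, had 538.1 and 511.1 in whole testis, 608 and 754.7 in tubules. Stat5a had 222.8 and 220.8, then 127.4 and 154.1, and Stat5b had 255.8 and 307.3, then 213.4 and 243.7. None of these 3 reached 2-fold in any pair. Socs3, a feedback inhibitor, was brightest in W/Wv tubules, at 668.7 against 113.2 to 202.9 elsewhere, and did not pass. Irs2, the adaptor that passed, exceeded the background bound on 1 array, W/Wv tubules (73.1), so its call is not established.

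Of 7 genes of the insulin-like growth factor axis, a main target of growth hormone, 1 was lower in XX/Sry and 1 lower in tubules. Medians were -0.38 and 0.07 for genotype, -0.04 and 0.02 for preparation; -0.04 became 0.18 after median centring. Igf1 had 1110.7 and 2353.7 in whole testis, 459.5 and 340.3 in tubules, and fell 2.42-fold and 6.92-fold (limma adjusted p = 0.0186). Its genotype ratio was 1.08 on the log2 scale for whole testis and -0.43 for tubules. Igfbp3, which binds these factors, had 1034.5 and 265.8 in whole testis, 1903.7 and 270.2 in tubules, and was lower in XX/Sry (limma adjusted p = 0.0106). Socs2, a feedback inhibitor that growth hormone induces, had 112.2 and 201.4, then 120.5 and 205.1, and did not pass.

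The joint Jak3 and Insl3 probe set 1423021_s_at was lower in tubules. In RefSeq, Insl3 lies on chromosome 8 inside the span of Jak3, on the same strand and with the same end; the transcript behind the probe set's design is listed under Insl3 and not Jak3. Its signal was 26560 (W/Wv) and 21508.5 (XX/Sry) for whole testis, 7764.1 and 10416.9 for tubules, so that both whole testis samples exceeded both tubule samples. Tubules were 3.42-fold lower for W/Wv and 2.06-fold lower for XX/Sry; the XX/Sry log2 ratio of -1.05 became -0.93 after median centring and -0.92 after quantile normalisation, short of 2-fold. Limma estimated -1.41 (SE 0.33, adjusted p = 0.0745), with a 95% interval from -2.14 to -0.68, and its adjusted p ran from 4.71e-05 to 0.570 over the settings tried.

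Between genotypes the joint probe set was 1.23-fold lower in XX/Sry whole testis, 1.34-fold higher in XX/Sry tubules. Limma estimated 0.06 (SE 0.33, adjusted p = 0.984), with a 95% interval from -0.67 to 0.79. Jak3 has 1 probe set of its own, 1425750_a_at, with 195 and 129.4 in whole testis, 125.7 and 127.3 in tubules, which passed in neither comparison. The other joint probe set, 1427092_at, had 41.6 and 29.0, then 53.6 and 5.9; it exceeded the bound in W/Wv tubules alone, and no fold is given.

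Beside the 11 Leydig markers, whose cells make Insl3, the joint probe set differed most for genotype in whole testis. There its log2 ratio of -0.30 lay below all 11, whose median was 0.52 and whose lowest value was -0.22. For tubules it had 0.42 against a median of 0.92, above 5 of them. Between preparations it had -1.77 and -1.05 against medians of -2.14 and -1.10. This was seen after the values were known and was not tested.

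Of 10 genes of steroid synthesis that luteinising hormone acts on through Lhcgr, 6 passed as lower in tubules and 0 as higher. All 6 are also among the Leydig markers given above, which were lower in tubules together with macrophage markers, so the lists are not separate evidence; the part of Leydig cell content was not tested. Preparation medians were -1.67 for W/Wv and -1.23 for XX/Sry, the latter -0.85 with all probe sets of a gene averaged. For genotype 1 passed as higher and 0 as lower; medians were 0.58 and 0.41. Cyp11a1, which starts the pathway, had 5952.3 and 9195.4 in whole testis, 1171.5 and 1565.8 in tubules. Hsd17b3, which completes testosterone and was the gene that passed for genotype, had 1930.2 and 3894.7, then 360.6 and 1139.8. Hsd3b1, an enzyme between them, had 7321.5 and 14284.4, then 1389.1 and 4171.9. Fdx1, an electron donor, had 13731.3 and 11775.2, then 3125.9 and 4110.7, and like the joint probe set was dimmer for XX/Sry in whole testis and brighter in tubules. Star, the cholesterol carrier, had 3458.8 and 4973.6, then 1223.3 and 2321.1. Nr5a1, a transcription factor of Leydig and Sertoli cells alike, had 1150 and 1306.4, then 1479.7 and 1128, and did not pass.

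**Figure D4:**
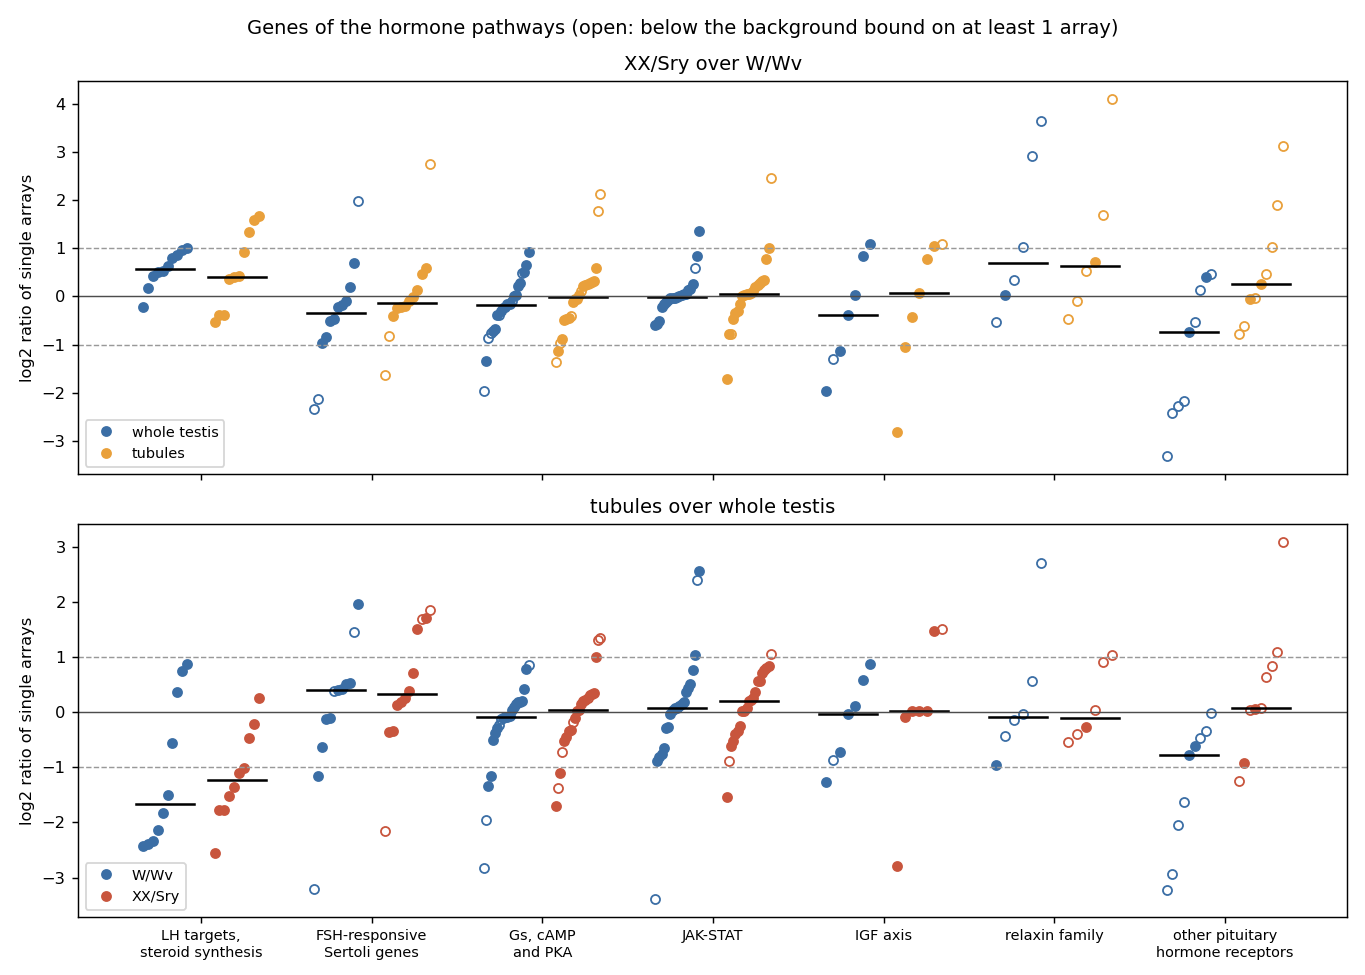
Log2 ratios of the genes of 7 hormone pathway lists, by genotype (top, blue for whole testis and orange for tubules) and by preparation (bottom, blue for W/Wv and red for XX/Sry); open circles are genes below the background bound on at least 1 array, black bars are list medians and dashed lines mark 2-fold. Targets of luteinising hormone have the lowest medians in the lower panel, -1.67 and -1.23.

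Relatives of Insl3 and of its receptor were dim, and 1 of 6, Insl6, exceeded the background bound on all arrays. Rxfp2, the Insl3 receptor, had 3.5 and 43.3 in whole testis, 22.8 and 32.9 in tubules, below the bound throughout. Rln1, relaxin, had 12.9 and 97.1, then 11.7 and 200.2. Against the bound whole testis of XX/Sry was at least 1.27-fold higher and its tubules were at least 3.28-fold higher (limma adjusted p = 0.185), so its pass, 1 of 6 for genotype, is not established in both. The list medians were 0.68 and 0.63 for genotype, -0.08 and -0.12 for preparation, with 0 of 6 passing for preparation. The preparation medians have no settled sign: -0.08 became 0.14 after median centring and 0.49 after quantile normalisation, and -0.12 became 0.055 after quantile normalisation.

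Of 9 receptors of other pituitary hormones 0 passed in either comparison, and 4 never exceeded the background bound. Medians were -0.73 and 0.25 for genotype, -0.77 and 0.07 for preparation. The brightest were Avpr1a, a vasopressin receptor, with 203.6 and 268.8 in whole testis, 119.4 and 141.8 in tubules, and Mc5r, a melanocortin receptor, with 132.3 and 79.9, then 86.1 and 83.3. Tshr, the thyrotropin receptor and a close relative of Fshr, exceeded the bound in W/Wv whole testis alone (112.8).

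Genes most like each receptor over the 4 arrays were ranked by the root mean square difference of centred log2 signals, among 7685 genes. For Fshr they were Ocln, a tight junction protein (0.028), Basp1 (0.031), Mtfr1l (0.035), Gbf1 (0.038) and Tsc1 (0.038), where the median over candidates was 0.43. Ocln had 655.4 and 746.1 in whole testis, 1199.4 and 794.1 in tubules. For Ghr they were S100a4 (0.023), Sct, the hormone secretin (0.031), Lamtor4 (0.066), Irf1 (0.067) and Xdh (0.072), with a median of 0.62. The 50th nearest gene stood at 0.085 for Fshr and 0.156 for Ghr, so many genes came close over 4 arrays.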

How the data were processed

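RNA of 4 samples was hybridised to 4 arrays. The authors deposited intensity values, MAS5 signals on a linear scale, per the submitters' processing notes; trimmed means of 500.2 on every array show a common scaling. Of 22690 probe sets 64 controls were set aside. The platform annotation named 1 gene for 20380, several for 691 and none for 1555; 20351 Entrez identifiers were found in RefSeq (GRCm38.p6). A list gene was represented by its probe set of highest mean log2 signal. The model was fitted with limma 3.58.1 in R 4.3.3 (two-sided, variance trend) and tested on simulated data. These had equal noise at every signal level and equal planted changes in both pairs. Such a test does not show how the model fares with noisier dim signals or with pairs that disagree. A fold is a bound where the dimmer signal lay below its array's background bound. Members and all 15 lists were chosen with earlier results of these data known. Named were all members and, per list, up to 4 genes that passed with the largest ratios, else the 2 brightest, plus Igf1, Igfbp3, Nr5a1, Star, Rxfp2, Jak2, Stat5a, Stat5b and Gnas; nearest genes needed a brightest array at or above its median. Amh, Inhbb, Inhba, Fst, Socs2, Socs3, Lep, Pparg, Cd163, Insl6, Tshr and the joint and Jak3 probe sets fall outside this rule and were added after their values were seen. Alternatives were median centring, quantile normalisation, 50 added to signals, filters on dim probe sets, averaging the probe sets of a gene and a fit without variance trend; for the joint probe sets they were chosen after seeing the data.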

Additional observations from a re-analysis of the deposited data

Results flagged for a closer look

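In 4 probe sets above the background bound on every array the genotype ratio pointed opposite ways in whole testis and tubules. With 1 array a group, this difference was not tested. The share of all probe sets that did so was not counted, so the number is not read as a trait of these genes. The log2 ratios of XX/Sry to W/Wv were 0.20 (whole testis) and -0.52 (tubules) for Fshr. They were -0.52 and 0.024 for the Ghr probe set 1417962_s_at, whose tubule ratio was -0.00101 after quantile normalisation. They were 0.47 and -0.056 for the Ghr probe set 1451501_a_at, and -0.30 and 0.42 for the joint Jak3 and Insl3 probe set 1423021_s_at. None of these 8 ratios reached 2-fold. The Jak3 probe set 1425750_a_at, also above the bound on every array, changed sign too, with -0.59 (whole testis) and 0.018 (tubules).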

How the results depend on the processing

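None of the 4 members passed 2-fold in both pairs under the scalings and the offset tried, or limma under the settings that kept them; the filter on the highest array removed 2 of the 4, both Ghr, which were then not tested. Counts over all probe sets moved with the treatment of dim signals. Adding 50 left 128 higher and 91 lower for genotype, 99 higher and 382 lower for preparation, against 497, 859, 409 and 1326 with deposited signals; among bright pairs (brighter array at or above its median) they were 143, 82, 126 and 391. Those higher in tubules numbered 620 after median centring and 643 after quantile normalisation. Limma called 34 probe sets for genotype and 275 for preparation. Among those whose highest array reached its median it called 271 and 875, after quantile normalisation 76 for genotype, and without a variance trend 0 and 0, with 1489 and 1961 at an unadjusted p under 0.05. The cause was not tested. No paired analysis was possible because each group has 1 array, so no replicate numbers pair arrays within the design; the limma model itself compares genotypes with preparation as a term, and preparations with genotype as a term. Leaving out an array would leave no residual degrees of freedom. Signal over background limits the third Ghr probe set, the dimmer joint probe set and 5 of 6 relaxin family genes.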
